A study of Mus musculus with 6 samples.

Results

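The receptors described here are the products of 7 CD300 genes, Cd300a, Cd300c2, Cd300lb, Cd300ld, Cd300ld3, Cd300ld5 and Cd300lf, out of 52636 genes in the tables. They were found by symbol, and all 7 matched. The 5 other genes whose symbols begin with Cd300 are given as counts, and Cd300e also with a fold change. The 6 RNA-seq libraries are of RAW264.7, a macrophage line from BALB/c mice. In 3 of them the cells had been given C2S, an extract, for 24 h at 150 µg/ml, and in the other 3, labelled PM_control, they had not. The labels spell out neither name, and nothing in them describes the replicates as independent cultures, so p-values measure only the spread between these libraries, which may be technical. The 7 genes were selected on their expected counts and TPM in these libraries, with the difference between the groups in view, and they are also the Cd300 genes that passed the count filter. Their values across the groups are therefore a description, with no p-value.

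CD300 proteins are single-pass receptors of myeloid cells with 1 immunoglobulin-like domain outside the cell, and several of them bind phospholipids or ceramide on the surface of dying or stressed cells. The inhibitory receptors carry tyrosine motifs (ITIMs) in a long tail that recruit the phosphatases SHP-1 and SHP-2, encoded by Ptpn6 and Ptpn11. The activating receptors have a short tail and signal through the adaptor proteins DAP12 (Tyrobp), DAP10 (Hcst) or the Fc receptor gamma chain (Fcer1g). Of these, DAP12 and the gamma chain pass the signal to the kinase Syk. Cd300a and Cd300lf were counted as inhibitory, Cd300lb, Cd300ld, Cd300c2 and Cd300ld3 as activating, and Cd300ld5 was given no role.

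Total estimated counts ranged from 8594485 to 10665869 per library. A floor of 3 counts corresponded to 0.275 to 0.361 CPM, which are counts scaled to a common library total with TMM factors, and it covers counting error only. The summed level of 9 macrophage markers was 6930 to 7209 TPM with C2S and 6738 to 7051 TPM in the controls. TPM is a share of all transcripts that is scaled for transcript length as well as depth. Only 1 count of the macrophage marker Mertk was found in all libraries together. The summed markers of mast cells, another cell type that carries CD300 receptors, reached at most 0.06 TPM, with 5 of 6 at 0 counts. Markers of T cells, fibroblasts and epithelial cells summed to at most 0.23 TPM, and those of dendritic cells to at most 1.65 TPM. The 5 B cell markers summed to 2.48 to 4.66 TPM with C2S and 0.12 to 0.54 TPM in the controls, with Ms4a1 at 0, and the 6 neutrophil markers to 2.49 to 6.18 and 0 to 3.7 TPM, with S100a9, Elane and Camp at 0. Their part in the results below was not tested.

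Of the family, 11 genes lie in 1 cluster on chromosome 11 (GRCm38, 114890041 to 115133992, 244 kb), where Cd300a is on the plus strand and the other 10 are on the minus strand. Cd300lg lies outside it. The coding sequences of the 7 members were between 64.1% and 99.6% identical over aligned bases, with a median of 69.8% over 21 pairs. Cd300ld3 and Cd300ld5 were the closest pair and differed at 3 of 735 coding bases, all within the first 30, followed by 705 identical bases. The first 90 coding bases of both, from GENCODE M21 transcripts, are shown because they hold every coding difference between them, with the bases that differ in capitals:
Cd300ld3: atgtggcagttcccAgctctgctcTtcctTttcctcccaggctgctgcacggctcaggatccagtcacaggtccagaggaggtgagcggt
Cd300ld5: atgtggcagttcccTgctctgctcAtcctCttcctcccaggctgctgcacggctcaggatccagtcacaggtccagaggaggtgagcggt
Over the whole transcript of 852 bases they differed at 9, and the others lie outside the coding sequence. Every stretch of 100 bases in Cd300ld5 (100%) and 80.9% of those in Cd300ld3 also occurred in another gene. The shares were 3.23% for Cd300c2, 1.37% for Cd300ld, 0.849% for Cd300a, 0.644% for Cd300lf and 0% for Cd300lb. Counts of Cd300ld3 and Cd300ld5 were not whole numbers in all 6 libraries, since RSEM shared their reads out, and each of these values is uncertain.

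The promoters of the 3 members whose levels differed most between the groups are given next, as 250 bases before to 50 bases after the start in RefSeq (GRCm38.p6), read along the minus strand. Capitals mark GAGGAAGT, the only motif found out of those searched. The windows are chr11:114934322-114934621 for Cd300lb, chr11:115133943-115134242 for Cd300lf and chr11:115048281-115048580 for Cd300ld3.
Cd300lb: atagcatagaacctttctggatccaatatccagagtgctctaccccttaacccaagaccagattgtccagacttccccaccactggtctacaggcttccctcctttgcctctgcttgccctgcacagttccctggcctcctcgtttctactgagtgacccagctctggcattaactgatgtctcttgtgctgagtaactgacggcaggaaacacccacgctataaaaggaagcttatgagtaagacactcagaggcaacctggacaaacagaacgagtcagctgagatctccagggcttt
Cd300lf: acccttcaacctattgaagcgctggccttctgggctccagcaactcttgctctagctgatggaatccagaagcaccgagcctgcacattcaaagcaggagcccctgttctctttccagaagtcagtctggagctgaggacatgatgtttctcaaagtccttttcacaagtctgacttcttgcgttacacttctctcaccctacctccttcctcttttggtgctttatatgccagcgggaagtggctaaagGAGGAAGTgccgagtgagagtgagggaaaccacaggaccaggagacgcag
Cd300ld3: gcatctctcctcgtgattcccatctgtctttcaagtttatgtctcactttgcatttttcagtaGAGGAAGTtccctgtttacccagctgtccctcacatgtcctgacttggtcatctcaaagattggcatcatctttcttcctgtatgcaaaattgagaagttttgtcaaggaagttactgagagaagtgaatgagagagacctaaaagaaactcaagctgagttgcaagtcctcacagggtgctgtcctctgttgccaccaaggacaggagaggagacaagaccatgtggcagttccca
GAGGAAGT, a form of the site of the myeloid factor PU.1, was in 4 of 7 member promoters, those of Cd300ld, Cd300ld3, Cd300ld5 and Cd300lf, and in 3.2% of 32851 promoters of that length. It began 143 bases before the start in Cd300ld, 187 bases before it in Cd300ld3 and Cd300ld5, and at the start itself in Cd300lf. The promoters of Cd300ld3 and Cd300ld5 are near copies, and the bases after the site in Cd300ld resemble theirs. The 4 sites are therefore not independent, and the share of members does not measure enrichment. The promoter of Cd300lb had none of the motifs searched on either strand. TTGCNNCAA (C/EBP, in 2.08% of all promoters), TGANTCA (AP-1, 7.81%), TGACGTCA (CRE, 1.79%) and an NF-kB site of 10 bases (0.155%) were in 0 of the 7.

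Cd300lb fell with C2S, Cd300lf and Cd300ld3 rose, and Cd300ld, Cd300c2, Cd300a and Cd300ld5 did not pass the threshold. In counts, 1 of 7 members was lower and 2 were higher in edgeR's quasi-likelihood fit at an adjusted p of 0.05. That fit called 55.4% of the 11561 genes tested, 28.4% lower and 27.0% higher. The median log2 fold change of the members was 0.06, against -0.00 over all genes tested. The 3 called members were also those whose 3 C2S values lay apart from the 3 control values, in CPM and in TPM, as did 61.1% of all genes tested in CPM.

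**Figure D1:**
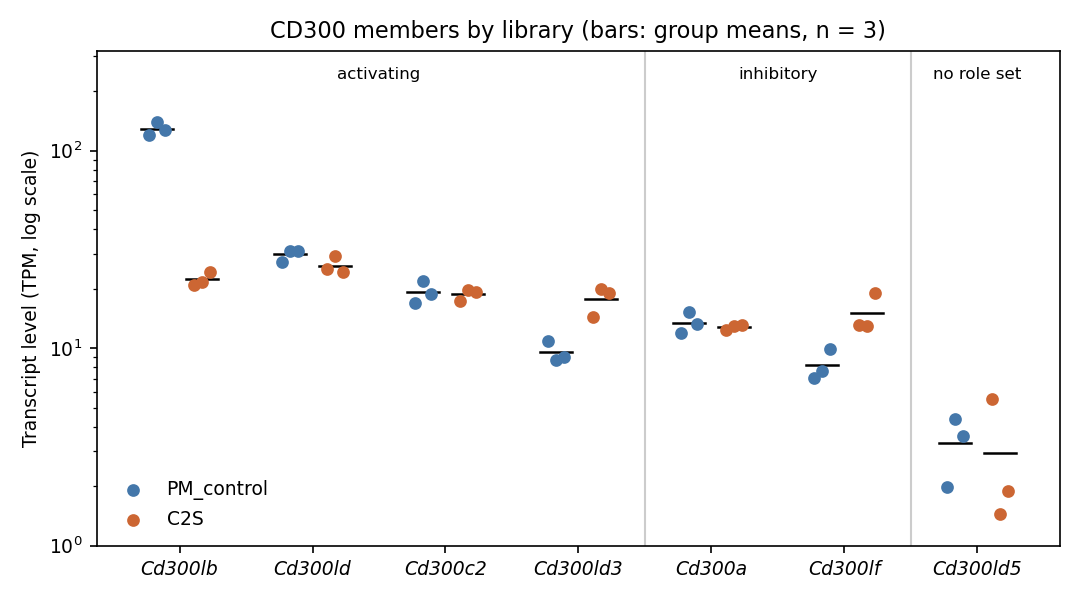
Transcript level in TPM (log scale) of the 7 CD300 genes, with 1 point per library, blue for PM_control and orange for C2S, and a bar at each group mean. Cd300lb stands at 120 to 140 TPM in the controls and 21.0 to 24.4 TPM with C2S, and Cd300ld3 and Cd300lf lie higher with C2S without overlap.

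Among the activating receptors, Cd300lb (ENSMUSG00000063193, chromosome 11, 114922781 to 114934386), which signals through DAP12, was the member that fell. Its level was 120, 140 and 126 TPM in control replicates 1 to 3 and 21.0, 21.5 and 24.4 TPM in C2S replicates 1 to 3. Every control library was above every C2S library, with estimated counts of 2128, 1999 and 1913 against 381, 289 and 322. On the CPM scale it went from 199 ± 3.65 to 36.2 ± 1.36 (SD, n = 3 per group). The log2 fold change was -2.46 ± 0.07 (SE), a level 5.5-fold lower. By that value it ranked 66 from the lowest of all genes tested. Genes called lower with a fitted change of at least 2-fold made up 7.17% of the genes tested.

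Cd300ld, a receptor that pairs with the Fc receptor gamma chain, was at 27.2, 31.2 and 31.1 TPM in the controls and 25.1, 29.1 and 24.3 TPM with C2S. The groups overlapped. Its log2 fold change was -0.09 ± 0.09, with a 95% interval of -0.28 to 0.11. Cd300c2, an activating receptor that can use DAP12 and the gamma chain, was at 16.8, 21.8 and 18.7 TPM in the controls and 17.2, 19.8 and 19.3 TPM with C2S. These values also overlapped, with a log2 fold change of 0.10 ± 0.15 and an interval of -0.22 to 0.42. For each gene, changes beyond its bounds lie outside the interval, and smaller ones in either direction lie within it.

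Cd300ld3 was at 10.9, 8.72 and 9.01 TPM in the controls and 14.3, 19.9 and 18.96 TPM with C2S. All C2S libraries were above all controls, and the log2 fold change was 0.99 ± 0.22. Its near copy Cd300ld5 was at 1.98, 4.36 and 3.6 TPM in the controls and 5.52, 1.45 and 1.9 TPM with C2S. These groups overlapped, and C2S replicate 1 was the highest of the 6. The log2 fold change was -0.00 ± 0.62, with an interval of -1.3 to 1.3, and it was -0.83 without C2S replicate 1.

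The pair was also described by its sum, to which Cd300ld4, another near copy, added 0 counts. The sum was 54, 50 and 47 in the controls and 84.0, 74 and 78 with C2S, in estimated counts, and all C2S libraries lay above all controls. On the CPM scale it was 4.98 ± 0.066 in the controls and 8.66 ± 0.355 with C2S. The log2 fold change of the sum was 0.79 ± 0.18, and between 0.77 and 0.84 with each library left out. The part of the sum given to Cd300ld5 was 15.4%, 33.3% and 28.6% in the controls and 27.8%, 6.8% and 9.09% with C2S. The shares overlapped between groups, and which of the copies a shared read came from cannot be told apart.

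**Figure D2:**
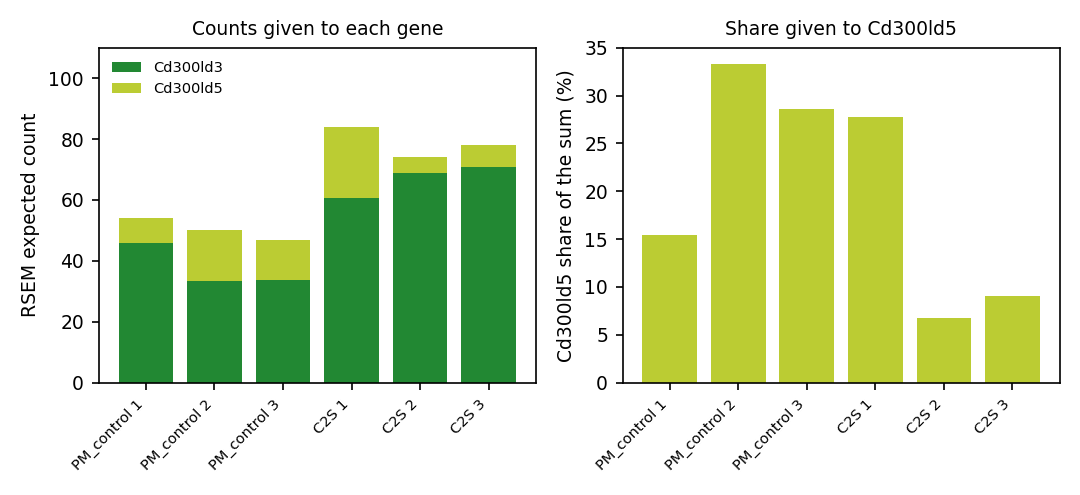
Left, RSEM expected counts of Cd300ld3 (dark green) and Cd300ld5 (light green) stacked for each of the 6 libraries. Right, the percent of that sum given to Cd300ld5. The stacked sum is 47 to 54 in the controls and 74 to 84.0 with C2S, while the share overlaps between groups.

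Of the inhibitory receptors, Cd300lf (ENSMUSG00000047798, chromosome 11, 115116214 to 115133992) rose. It binds phosphatidylserine and ceramide and is the entry receptor of murine norovirus. Its level was 7.02, 7.69 and 9.89 TPM in the controls and 13.1, 12.9 and 19 TPM with C2S. The lowest C2S library was above the highest control, and C2S replicate 3 was the highest of the 6. The log2 fold change was 0.95 ± 0.17, from 7.81 ± 1.43 to 15.1 ± 1.71 CPM. Cd300a, which recruits SHP-1 and SHP-2 and binds phosphatidylserine and phosphatidylethanolamine, was at 11.9, 15.2 and 13.2 TPM in the controls. With C2S it was at 12.4, 12.9 and 13.1 TPM, within the range of the controls. Its log2 fold change was 0.06 ± 0.10, with an interval of -0.14 to 0.26. The ratio of Cd300lf to Cd300a in TPM was 0.591, 0.507 and 0.75 in the controls and 1.06, 0.998 and 1.45 with C2S, so Cd300lf went from below Cd300a to near or above it.

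The order of the members differed between the groups. In the controls Cd300lb was first at 129 ± 10.2 TPM (SD, n = 3). Cd300ld followed at 29.8 ± 2.24, Cd300c2 at 19.1 ± 2.53 and Cd300a at 13.4 ± 1.66. Ranges of these neighbours in the order did not overlap. Cd300ld3 at 9.54 ± 1.18 and Cd300lf at 8.2 ± 1.5 overlapped each other, and Cd300ld5 was lowest at 3.31 ± 1.22. With C2S, Cd300ld was first at 26.2 ± 2.58 and Cd300lb second at 22.3 ± 1.85, with overlapping ranges. Cd300c2 (18.7 ± 1.35), Cd300ld3 (17.7 ± 2.98), Cd300lf (15.01 ± 3.46) and Cd300a (12.8 ± 0.388) each overlapped the next in that order. Cd300a thus stood above Cd300ld3 and Cd300lf in the controls and had the lower mean with C2S. Cd300ld5 was apart from the others at 2.96 ± 2.23.

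The 4 activating members together were at 175, 202 and 185 TPM in the controls and 77.7, 90.3 and 86.9 TPM with C2S. The 2 inhibitory members together were at 18.9, 22.9 and 23.1 TPM in the controls and 25.5, 25.9 and 32.1 TPM with C2S. Neither sum overlapped between the groups. The ratio of activating to inhibitory transcripts was therefore 9.25, 8.82 and 8.03 in the controls and 3.05, 3.49 and 2.71 with C2S. Cd300lb alone made up 61.2%, 61.1% and 59.7% of the summed TPM of the 7 members in the controls and 19.3%, 18.3% and 20.2% with C2S. Without Cd300lb, a choice made after the values were seen, the ratio was 2.91, 2.70 and 2.55 in the controls and 2.22, 2.66 and 1.95 with C2S, and the groups overlapped. Levels are of transcripts in a bulk sample, where fewer cells with a transcript and less of it per cell cannot be told apart.

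**Figure D3:**
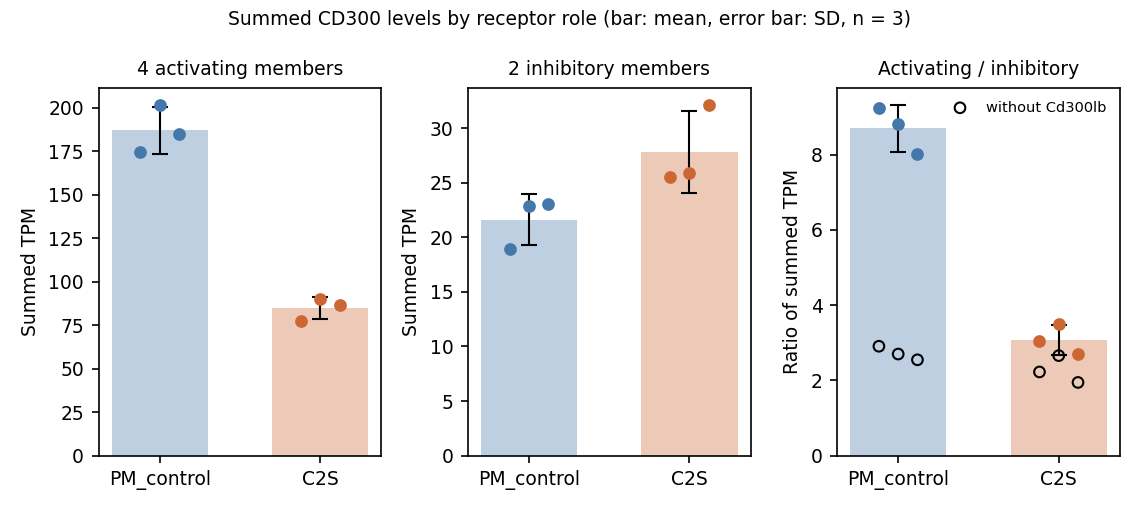
Summed TPM of the 4 activating (left) and the 2 inhibitory (middle) CD300 members, and their ratio (right), with bars for the mean, error bars for the SD and 1 filled point per library. Open circles give the ratio without Cd300lb, at 2.55 to 2.91 in the controls and 1.95 to 2.66 with C2S, against 8.03 to 9.25 and 2.71 to 3.49 with it.

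RSEM weights each gene's length by the transcripts it assigns reads to, which gives a view of the transcript mix apart from the level. For Cd300lb the weighted length was 2777, 2570 and 2356 bases with C2S and 2779, 2442 and 2655 bases in the controls. For Cd300lf it was 1745, 1857 and 1514 bases with C2S and 1692, 1754 and 1686 bases in the controls. Both overlapped between the groups. Cd300c2 was at 1214, 1206 and 1224 against 1201, 1197 and 1210 bases, which also overlapped.

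The other 5 Cd300 genes did not pass the count filter. Cd300e, an activating receptor of monocytes, was nearest to it, with 7, 9 and 6 estimated counts in the control libraries and 9, 14 and 24 in those with C2S. Cd300ld5, the member with fewest counts, had 5.03 to 23.3. In a fit without the filter the log2 fold change of Cd300e was 1.23 (edgeR, adjusted p = 0.053). Cd300lg had 1 to 6 counts per library, Cd300c 0 to 4 and Cd300ld2 at most 1.02. Cd300ld4 was assigned 0 in every library. Its transcript differs from that of Cd300ld5 at 1 of 852 bases, and 86.7% of its stretches of 100 bases also occurred in another gene. For reads from those stretches this 0 is RSEM's assignment among near copies, so it is only a weak limit on the level of Cd300ld4.

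Genes around the cluster moved in both directions. Between the first and the last Cd300 gene lie 3 other genes, none of which passed the count filter. Of 44 genes within the cluster or 500 kb either side, 19 were tested, of which 4 rose and 6 fell, or 21.1% and 31.6%, against 27.0% and 28.4% of all genes. Nearest beyond Cd300lf among those tested, Slc9a3r1, a scaffold protein under the membrane, rose from 22.2 ± 1.76 to 61.6 ± 5.34 CPM (log2 fold change 1.47 ± 0.10; edgeR, adjusted p = 1.46e-09). Ttyh2 (0.69 ± 0.09) and Fdxr (0.85 ± 0.12), which encodes ferredoxin reductase, also rose. Gga3 (-0.72 ± 0.08), an adaptor of Golgi transport, Tmem104 (-1.11 ± 0.14) and Armc7 (-1.08 ± 0.14) fell. Gga3 was not called on either log2 TPM scale. Cd300lb had a lower log2 fold change than any of these 19 genes.

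**Figure D4:**
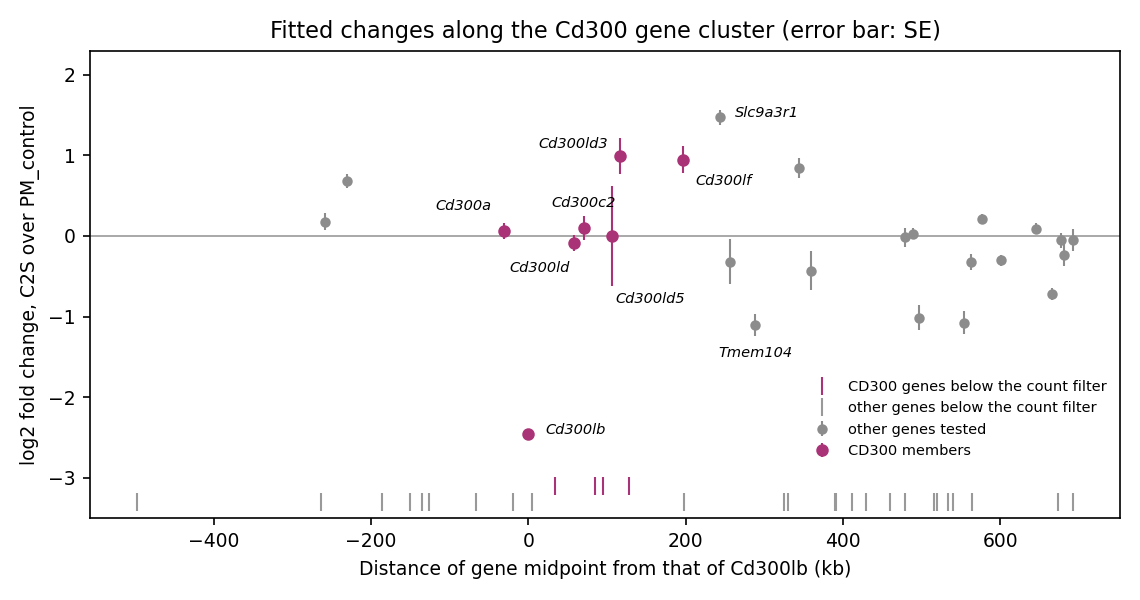
Fitted log2 fold change (C2S over PM_control, error bar SE) against the distance of each gene's midpoint from that of Cd300lb in kb, for CD300 members (purple) and other genes tested (grey). Ticks mark genes below the count filter. Cd300lb at -2.46 is the lowest point, and its CD300 neighbours lie near 0 or, for Cd300ld3 and Cd300lf, near 1.

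The adaptors of the activating receptors did not pass the test. DAP12 (Tyrobp) was at 192 ± 15.4 CPM in the controls and 183 ± 10.72 with C2S (log2 fold change -0.06 ± 0.07; edgeR, adjusted p = 0.449). The gamma chain (Fcer1g) was at 96.8 ± 11.6 and 103 ± 6.38 CPM (0.08 ± 0.08; edgeR, adjusted p = 0.421), and DAP10 (Hcst) at 3.79 ± 1.88 and 5.3 ± 1.59 CPM (0.48 ± 0.33; edgeR, adjusted p = 0.226). In all, edgeR called 0 of 3 adaptors, 0 also had an unadjusted p under 0.05, and DESeq2 and limma-voom called 0. Of all genes tested, edgeR called 55.4%. Hcst passed without control replicate 3 (edgeR, adjusted p = 0.0423), and its adjusted p ranged up to 0.655 over the alternatives.

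Of 24 kinases and relays of activating signals, 14 rose and 4 fell, or 58.3% and 16.7%, against 27.0% and 28.4% of all genes tested. Their median log2 fold change was 0.21. These counts include the ubiquitin ligases Cblb (0.44 ± 0.14, higher) and Cbl (-0.21 ± 0.07, lower), which restrain such signals rather than relay them. On log2(TPM + 1) with limma the same list had 6 higher and 5 lower of 23, and all genes also had fewer rises on that scale, 35.9% of calls against 48.8%. Vav3, an exchange factor for small GTPases, rose by 1.37 ± 0.09 on the log2 scale. Pik3r1, a regulatory subunit of PI 3-kinase, rose by 0.78 ± 0.09, and Lcp2, the adaptor SLP-76, by 0.74 ± 0.09. Sh3bp2, an adaptor that binds Syk, fell by 1.34 ± 0.08, Pik3cg by 0.83 ± 0.08 and the kinase Btk by 0.40 ± 0.07. Syk itself was at 85.0 ± 3.31 CPM in the controls and 97.2 ± 9.35 with C2S (0.19 ± 0.08; edgeR, adjusted p = 0.0422). It missed the threshold in 9 of 21 alternatives, among them the omission of C2S replicate 3 or of any 1 control library, where the adjusted p reached 0.224. Over all its alternatives the adjusted p ranged from 0.0149 to 0.534. Src, named after its value was seen, had the highest log2 fold change of the list (2.48 ± 0.56) at 0.298 ± 0.27 CPM in the controls, near the floor, and 1.71 ± 0.152 with C2S. Its size rests on few control reads and was 3.43 without control replicate 2 and 2.11 without control replicate 3.

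Of 8 listed genes of inhibitory signals (phosphatases, docking proteins and the kinase Csk), 2 rose and 4 fell, with a median log2 fold change of -0.17. These are 25% and 50%, against 27.0% and 28.4% of all genes tested. SHP-1 (Ptpn6) fell from 372 ± 5.75 to 296 ± 5.73 CPM (log2 fold change -0.33 ± 0.06; edgeR, adjusted p = 7.89e-05). SHP-2 (Ptpn11) was at 238 ± 9.88 CPM in the controls and 270.3 ± 9.21 with C2S (0.18 ± 0.06; edgeR, adjusted p = 0.0134). That call was lost in 6 of 21 alternatives, among them the omission of C2S replicate 3 or of control replicate 2 or 3, and the adjusted p ranged from 0.00518 to 0.995. The lipid phosphatase SHIP-1 (Inpp5d) was at 334 ± 6.9 and 354 ± 23.4 CPM (0.09 ± 0.06; edgeR, adjusted p = 0.244). Dok2 rose by 0.43 ± 0.08, and Dok1 (-0.72 ± 0.11), another docking protein, fell. Inppl1 (SHIP-2) had a log2 fold change of -0.32 ± 0.07, but 18.8% of its exon length overlaps Gm10602, so its value is uncertain.

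Other paired receptors of myeloid cells were set beside the CD300 genes. Of 9 other activating receptors tested out of 27 found, 0 rose and 3 fell, or 33.3% against 28.4% of all genes. In edgeR, 0 of the 9 had a rise even at an unadjusted p under 0.05, and DESeq2 and limma-voom called 0 higher and 3 lower. Clec5a, which like Cd300lb signals through DAP12, fell from 138 ± 1.9 to 54.2 ± 1.69 CPM (log2 fold change -1.35 ± 0.07; edgeR, adjusted p = 3.83e-11). Clec4d (-0.35 ± 0.10) and Clec4e (-0.33 ± 0.11), both C-type lectins, also fell. Without control replicate 3 the list had 1 call, and Clec4d (-0.25) and Clec4e (-0.30) were not called. Clec4e also missed the threshold without C2S replicate 1 or 3 or control replicate 2, and both missed it with the trend over GC content removed. When counts were scaled by the library totals only, 5 of the 9 were called.

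Of 18 tested genes listed as other inhibitory receptors, 7 rose and 3 fell, or 38.9% and 16.7%, against 27.0% and 28.4% of all genes. The listed genes were not checked for ITIMs, so the counts may include receptors without them, such as Lilr4b. Lilrb4a (0.68 ± 0.06) and Lilr4b (1.17 ± 0.12) were higher, but both had non-whole counts in all 6 libraries and 35.3% of the exon length of Lilrb4a overlaps Gm49339, so their values are uncertain. Pecam1 rose from 2, 1 and 3 counts to 66, 69 and 29, a change whose size rests on few control reads. Pdcd1 (PD-1) fell by 3.45 ± 0.24 on the log2 scale, Clec12a by 0.44 ± 0.08 and Cd200r1 by 1.17 ± 0.33. Cd200r1 was at -0.84 and not called without control replicate 3, and Clec12a at -0.17 and not called with the GC trend removed.

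Of 10 tested genes of other phosphatidylserine receptors and bridging proteins, 2 rose and 3 fell, or 20% and 30%, which is near the 27.0% and 28.4% of all genes tested. Mfge8, a bridge between phosphatidylserine and integrins, rose from 104 ± 2.3 to 164 ± 4.54 CPM (0.66 ± 0.06; edgeR, adjusted p = 8.83e-08), and Scarb1 rose by 0.22 ± 0.06, a call lost in 3 of 21 alternatives. Itgav, the integrin chain that Mfge8 binds, fell by 0.97 ± 0.06 on the log2 scale, Havcr2 (TIM-3) by 0.89 ± 0.13 and Cd36 by 0.29 ± 0.07. With the trend over GC content removed in each library, Cd36 had a log2 fold change of 0.12 and was not called.

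**Figure D5:**
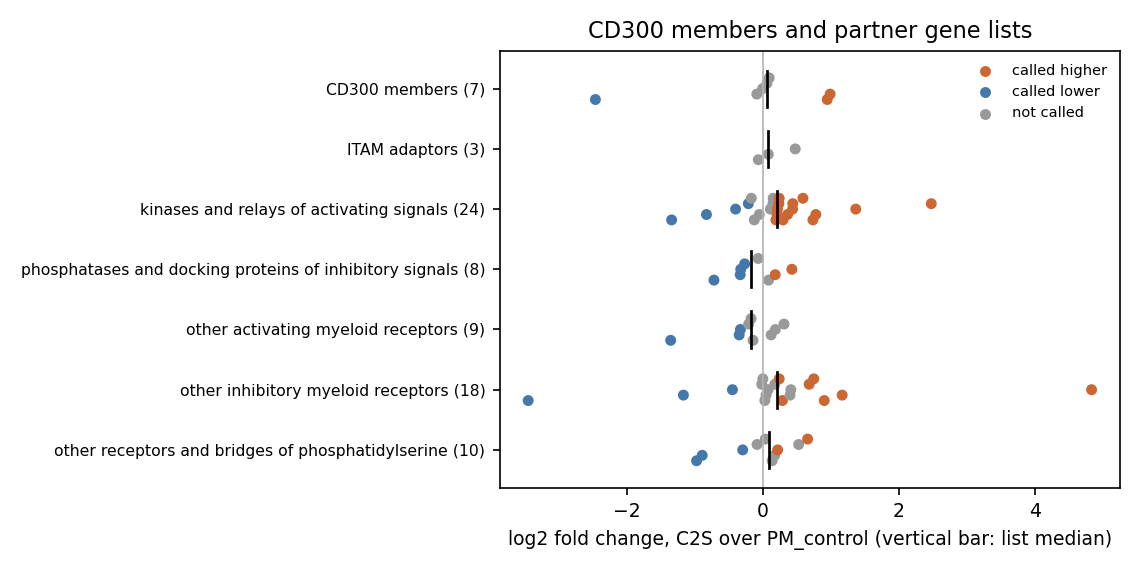
Log2 fold change (C2S over PM_control) of the 7 CD300 members and of the genes tested in 6 partner lists, orange for called higher, blue for called lower and grey for not called, with a vertical bar at each median. Of the 3 adaptors, none of them called, Tyrobp (-0.06) and Fcer1g (0.08) lie near 0 and Hcst at 0.48, while Cd300lb stands at -2.46.

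The genes whose log2 CPM correlated most with that of Cd300lb and of Cd300a were found over the 6 libraries, as a description. These members had the highest mean TPM of their role over all libraries, although Cd300ld and Cd300lf had higher means than they did with C2S. For Cd300lb they were Commd5 (Pearson r = 0.9998), Rrs1 (0.9998) and Tnip3 (0.9996), and 303 genes had r above 0.99 and 2285 above 0.9. For Cd300a, which did not separate the groups, they were Sra1 (0.98), Nek6 (0.9753) and Tmem192 (0.956), and 0 genes had r above 0.99 and 21 above 0.9. All points share the same 6 libraries, and their depth and composition. Cd300lb separated the groups, so a high r with it can follow from the difference between the groups alone.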

How the data were processed

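RNA of 6 libraries, 3 per group, was sequenced. Groups and replicate numbers come from the sample titles. The series design text names fastp, STAR with mm10 and RSEM, and edgeR for the comparison. The sources used here give no versions, annotation or strand setting. Each library has its own deposited table, which per the file headers holds RSEM's expected counts, TPM, FPKM and lengths. The deposited FPKM were not used.

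The expected counts were rounded, and filterByExpr kept 11561 genes (at least 10 counts, 15 in total). They were compared in R 4.3.3 by the quasi-likelihood test of edgeR 4.0.16, with TMM scaling and a model of group alone, and adjusted over all genes by Benjamini-Hochberg at 0.05. DESeq2 1.42.0 and limma 3.58.1 served as alternatives. CPM are TMM-scaled, each log2 fold change is that of C2S relative to PM_control, and SEs and 95% intervals come from the F statistic. The fit was tested on simulated counts. Coordinates, overlaps and transcripts are from GENCODE M21 (GRCm38), in which 52489 of 52636 genes were found, and promoters from RefSeq. Replicates were not duplicates (chi-square per degree of freedom 4.3 to 6.46).

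The members, roles and gene lists were chosen with earlier results of these data known. Named genes were all members, the adaptors, Syk, Ptpn6, Ptpn11, Inpp5d, up to 3 per direction of each list by adjusted p among those with separate groups, and the 3 most correlated genes of 1 member per role. Alternatives were RLE and upper quartile scaling, library sizes alone, DESeq2, limma-voom, limma on log2(TPM + 1) or log2(TPM + 0.1), 2 other filters, unrounded counts, a replicate block, omission of genes with non-whole counts, of the 10 most abundant genes or of each library, and removal of the GC trend. Summing Cd300ld3, Cd300ld4 and Cd300ld5 and leaving Cd300lb, or Cd300ld3 with Cd300ld5, out of the ratio were chosen after the data were seen.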

Additional observations from a re-analysis of the deposited data

How the results depend on the processing

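The calls of the 7 members were the same in each of up to 21 alternatives that tested them. The log2 fold change of Cd300lb ranged from -2.55 to -2.43, that of Cd300lf from 0.79 to 1.09 and that of Cd300ld3 from 0.82 to 1.14. Members called higher numbered 0 with genes of non-whole counts left out, where only 3 members remain, and 1 with Cd300ld3, Cd300ld4 and Cd300ld5 summed, where the sum, itself called higher, is not counted among the 5 members tested. Members called lower numbered 1 and members called higher 2 with any 1 library left out. The members' median (0.06) was -0.025 with library sizes alone, -0.056 on log2(TPM + 1) and -0.059 on log2(TPM + 0.1). It ranged from -0.023, without PM_control replicate 1, to 0.19, without PM_control replicate 2, and the cause was not tested. The log2 ratio of activating to inhibitory members differed between the groups by -1.50 (CPM in place of TPM and Cd300ld5 as activating changed it by less than the replicate SD of 0.149), by -0.27 without Cd300lb and by -1.76 without Cd300ld3 and Cd300ld5. Adaptors called ranged from 0 to 1 and other activating receptors from 1 to 3 with each library left out, the latter 5 with library sizes alone. Called kinases and relays numbered 11 on log2(TPM + 1) and 11 on log2(TPM + 0.1), against 18. Cd36 turned to 0.12 with the GC trend removed. With the replicate number as a block 6489 genes were called, against 6405, and the same members. Same-numbered libraries had correlations of -0.01 to 0.07 and differently numbered ones of -0.10 to 0.08, and 3 of 6 libraries correlated best with their own number. With 3 libraries per group these values cannot tell whether the numbers pair them. Cd300ld5 (5.03 to 23.3 counts per library) and the 5 Cd300 genes below the filter rest on few counts, and Cd300ld5 and Cd300ld4 also on reads shared with near copies.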
